A study of Mus musculus with 23 samples.

Results

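Matrix metalloproteinases (MMPs) are zinc-dependent endopeptidases that cut collagens, proteoglycans and other proteins of the extracellular matrix. They are made as inactive precursors, secreted or held at the cell surface, and blocked there by the tissue inhibitors of metalloproteinases (TIMPs). Fibroblasts are a main source of both, and several MMP genes are textbook examples of genes driven by the transcription factor AP-1 and held down by glucocorticoids. The members described here were 9 genes, namely the proteinases Mmp2, Mmp3, Mmp10, Mmp11, Mmp13 and Mmp14 and the inhibitors Timp1, Timp2 and Timp3. They were listed by symbol and found through their Ensembl identifiers, 9 of the 55487 gene identifiers in the count table, each symbol matching exactly 1 identifier.

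The samples were primary fibroblasts of FVB/NJ mouse embryos (MEFs), prepared from heterozygous intercrosses, with cultures of a genotype taken from different mice. Cells carried the unmodified glucocorticoid receptor (GRwt/wt), a change in the dimer interface of its DNA-binding domain (GRD/D), a change in the dimer interface of its ligand-binding domain (GRL/L), or the combination of the D and L changes (GRD+L/D+L), each on both alleles. The L changes were made by CRISPR/Cas9 in zygotes and backcrossed to FVB/NJ, and the cultures still differ by embryo. RNA was sequenced after 5 h with vehicle or with 10 nM dexamethasone (Dex), a synthetic GR ligand, in 8 groups of 3 libraries, except GRD/D vehicle with 2, giving 23 libraries of 16.5 to 23.1 M counts.

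The summed level of 10 fibroblast markers, among them Col1a1, Pdgfra and Thy1, was between 39577 and 66327 CPM (read counts scaled by library size, TMM) in every library. The sum rested mostly on the highest genes, such as Col1a1 (median 12942 CPM), and little on others, such as Thy1 (185 CPM). Single markers varied unequally, Col1a1 from 9165 to 15697 CPM and Lum from 10.9 to 1415 CPM. The sum of 6 epithelial markers ran from 0.859 to 5.56 CPM. Some libraries stood apart. GRwt/wt vehicle replicate 1 had a highest Spearman correlation of 0.916 with any other library. Its deviations from the median of each gene followed gene GC content with a rho of 0.688. The summed level of 10 macrophage markers was 5759 CPM in GRwt/wt vehicle replicate 3, against 18.5 to 115 CPM in GRwt/wt Dex, 314 to 2050 CPM over the GRD/D libraries, 373 to 921 CPM over the GRL/L libraries and 8.63 to 99.9 CPM over the GRD+L/D+L libraries. The macrophage elastase gene Mmp12 was also highest there, at 203.3 CPM. The summed level of 6 cartilage markers was 248 and 299 CPM in replicate 1 of GRD+L/D+L in vehicle and Dex, against 18.9 to 27.5 CPM in its other libraries, and 26.4 to 282 CPM over the GRwt/wt libraries. That of 5 skeletal muscle markers was 256 and 172 CPM in replicate 1 of GRwt/wt, against 11.8 to 48.0 CPM elsewhere. Endothelial (3.39 to 21.4 CPM, 5 markers) and bone markers (18.1 to 52.4 CPM, 5 markers) stayed low in all libraries. In bulk RNA, fewer cells of a type and less RNA per cell cannot be told apart.

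Mmp13, Mmp3 and Mmp10 lie in 1 cluster of 10 Mmp genes on chromosome 9 (GRCm38, mm10), between positions 7272514 and 7699585. Their promoters are shown because the genes share this cluster, with other Mmp genes between them, and AP-1 is the classical regulator of this group. The 100 bases before the RefSeq start (GRCm38.p6, plus strand in all) are printed with the AP-1 element, TGANTCA, in capitals. They come from the reference strain, and FVB/NJ was not compared with it.
Mmp13, chr9:7272414-7272513: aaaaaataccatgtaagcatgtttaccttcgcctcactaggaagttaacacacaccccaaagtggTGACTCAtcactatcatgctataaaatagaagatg
Mmp3, chr9:7445722-7445821: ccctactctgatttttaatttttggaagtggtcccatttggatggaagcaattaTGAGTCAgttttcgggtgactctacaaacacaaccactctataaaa
Mmp10, chr9:7502242-7502341: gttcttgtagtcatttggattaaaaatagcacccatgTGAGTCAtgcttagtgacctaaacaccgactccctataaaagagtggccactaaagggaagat

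Each of these promoters held 1 AP-1 element followed by a TATAAA box. In windows of 250 bases before to 50 bases after the start, searched on both strands, the element was present in 7.81% of 32851 mouse promoters and the TATAAA box in 13.6%. Of the 8 members with a window, 3 held the AP-1 element, and these 3 were Mmp3, Mmp10 and Mmp13. The palindromic GR element, AGAACA and TGTTCT separated by 3 bases, was found in no member window and in 0.00913% of all windows. Either arm of it alone, AGAACA or TGTTCT, was found in the windows of Mmp10 (bases -101 to -96 from the start) and Mmp11 (-75 to -70), and in 19.0% of all windows. A match describes the letters only. The other members, all protein-coding like these 3, were Mmp2 (chr8:92827291-92853420, plus strand), Mmp11 (chr10:75923222-75936496, minus), Mmp14 (chr14:54431612-54445364, plus), Timp1 (chrX:20870166-20874735, plus), Timp2 (chr11:118301069-118355740, minus) and Timp3 (chr10:86300372-86349506, plus), by the GENCODE M21 annotation of GRCm38.

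Levels between genes were compared per kilobase of merged exons. On the scale of median CPM per kb, Timp2 was highest (654), followed by Mmp2 (326), Timp1 (217), Mmp14 (167), Timp3 (87.6), Mmp11 (53.9), Mmp3 (29.1), Mmp13 (5.86) and Mmp10 (0.620). The 3 genes of the chromosome 9 cluster were thus the lowest of the 9. Members also differed in how far libraries were spread. Timp2, Timp3, Mmp11, Mmp14 and Mmp2 spanned 2.53-fold to 3.66-fold between their lowest and highest library, Timp1 4.12-fold, Mmp3 23.3-fold and Mmp13 219-fold. Mmp10, the lowest, had under 10 counts in 5 libraries.

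**Figure D1:**
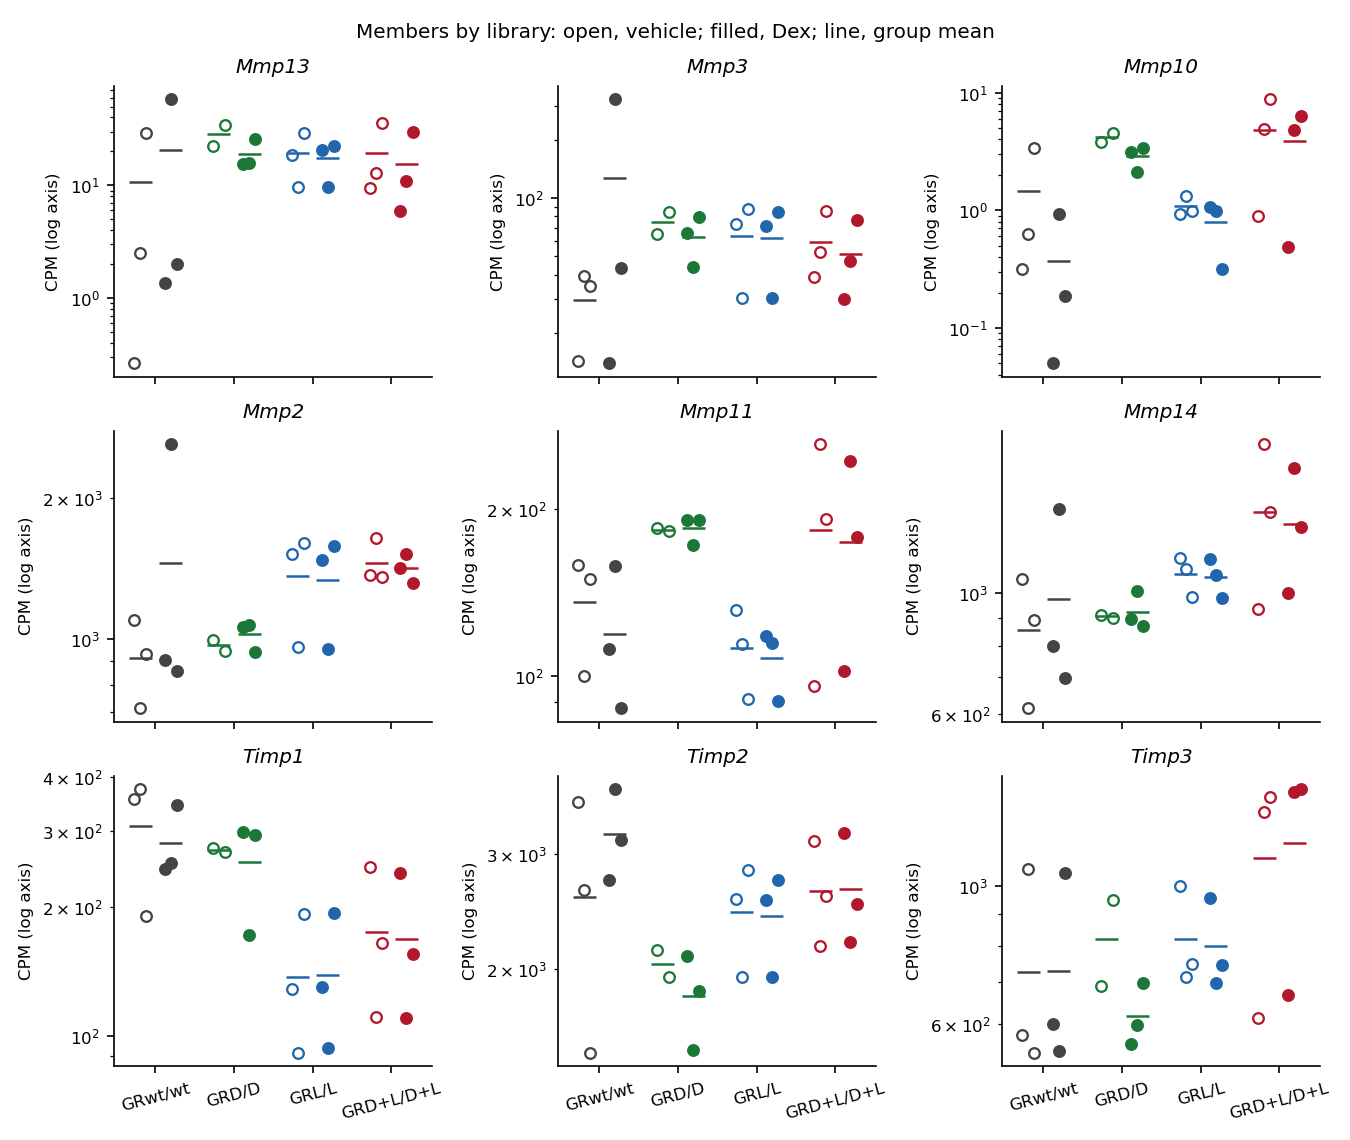
Expression of the 9 members in CPM after TMM scaling on log axes, 1 panel a gene, with 1 point a library (open, vehicle, filled, Dex, in 4 colors by genotype) and a line at each group mean. Mmp10 at 0 counts is drawn at 0.05. GRwt/wt Dex replicate 2 carries the highest Mmp3 value, 323.4 CPM, and Timp1 in GRL/L runs from 91.2 to 192.7 CPM in vehicle and from 93.6 to 192.9 CPM in Dex.

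The first question was whether Dex changed the members in cells with the unmodified receptor. In GRwt/wt 0 of the 9 members were called by edgeR's quasi-likelihood test at an adjusted p of 0.05 and an absolute log2 fold change (LFC) of 1, while 0.159% of 15748 genes were called. DESeq2 also called 0 members, with 1.78% of the 15693 genes it gave an adjusted p. Mmp3 alone of the members had an unadjusted p under 0.05 (0.0167), as had 2454 of the 15748 genes tested. Median LFC was 0.16 for the members and -0.01 for all genes tested.

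Mmp13 encodes collagenase-3, the main interstitial collagenase of mice. Its values were 0.26, 2.52 and 29.1 CPM in GRwt/wt vehicle and 1.36, 58.0 and 2.00 CPM in GRwt/wt Dex, with both groups spread over a range far wider than their difference, and its LFC was 0.96 (SE 1.21, adjusted p = 0.728). Mmp3, stromelysin-1, cuts proteoglycans and activates other MMPs. It stood at 14.2, 39.5 and 34.9 CPM in vehicle and 13.9, 323.4 and 43.3 CPM in Dex, an LFC of 2.09 (SE 0.79, adjusted p = 0.220). The value rested on 1 library, because without GRwt/wt Dex replicate 2 the LFC of Mmp3 was -0.07 and that of Mmp13 was -2.67, and without GRwt/wt vehicle replicate 3 that of Mmp13 was 3.89. Mmp10, stromelysin-2, was covered by 6, 12 and 75 counts in vehicle and 0, 20 and 3 counts in Dex (LFC -1.92, SE 1.07, adjusted p = 0.410). Leaving out GRwt/wt vehicle replicate 3 gave an LFC of -0.30 for Mmp10, and leaving out Dex replicate 2 gave -3.99.

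Mmp2, the gelatinase whose precursor is activated at the cell surface, measured 1098.4, 712.8 and 930.3 CPM in GRwt/wt vehicle and 905.0, 2608.1 and 854.6 CPM in Dex (LFC 0.65, SE 0.33, adjusted p = 0.360). The library that was highest for Mmp3 and Mmp13 was also highest for Mmp2, and without it the LFC of Mmp2 was -0.08. Mmp14, the membrane-type proteinase that activates pro-Mmp2, gave an LFC of 0.16 (SE 0.27, adjusted p = 0.792), and Mmp11, stromelysin-3, -0.21 (SE 0.32, adjusted p = 0.771). Mmp11 shares exon bases with Chchd10 on the other strand, so its counts may hold reads of both genes.

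For the inhibitors, the GRwt/wt LFC was -0.16 for Timp1 (SE 0.38, adjusted p = 0.856), 0.29 for Timp2 (SE 0.27, adjusted p = 0.634) and -0.02 for Timp3 (SE 0.35, adjusted p = 0.986). Timp3 shares exon bases with Syn3 on the other strand, and Timp2 and Timp1 share none with the genes they overlap. The 95% intervals were wide for the low genes, -1.59 to 3.51 for Mmp13 and 0.43 to 3.76 for Mmp3, against -0.41 to 0.74 for Mmp14.

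**Figure D2:**
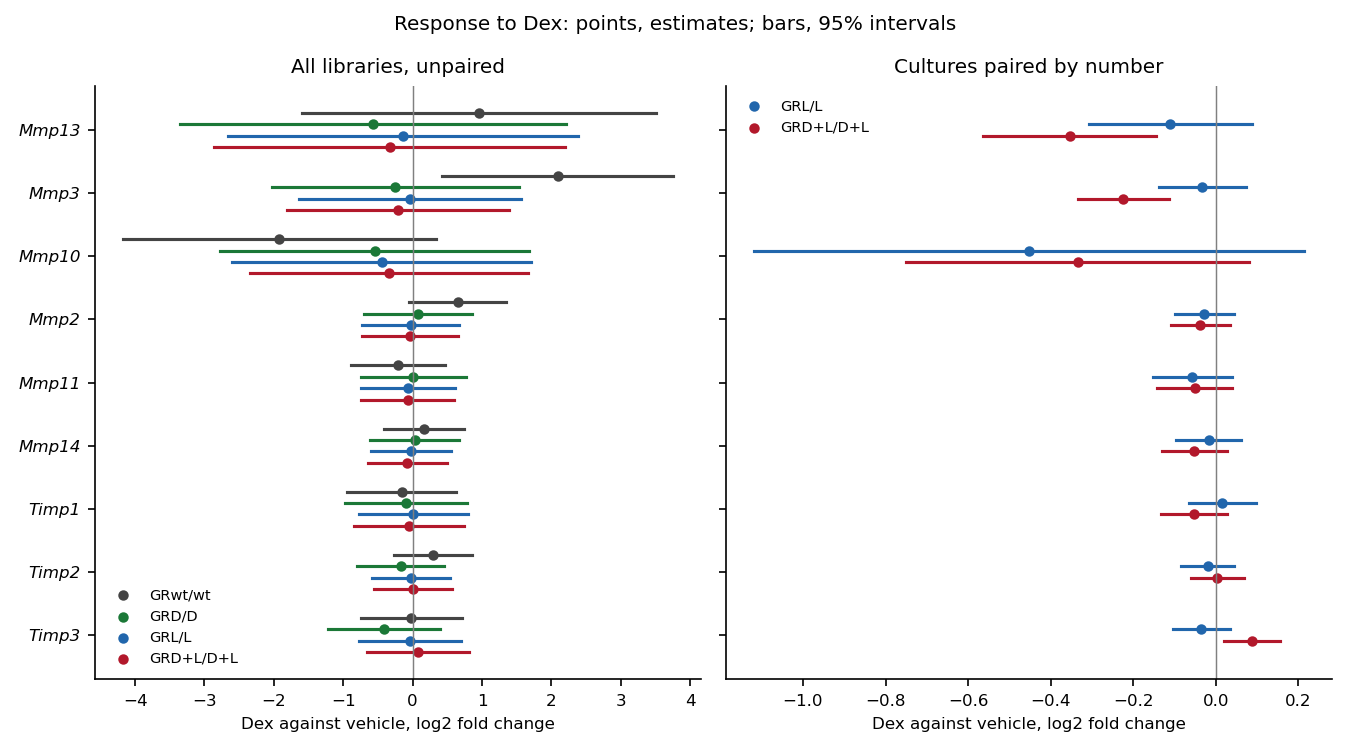
Log2 fold change of Dex against vehicle for the 9 members, as points with 95% intervals. The left panel holds the fit of all 23 libraries in 4 genotypes, and the right panel, with its own scale, the fit of GRD+L/D+L and of GRL/L with cultures paired by number. The paired interval of Mmp3 in GRD+L/D+L, -0.33 to -0.11, is far narrower than the unpaired one, -1.81 to 1.39.

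In each of the 3 mutants 0 of 9 members were called with Dex by edgeR, against 0% of all genes tested in each, and 0 of 9 had an unadjusted p under 0.05. DESeq2 also called 0 of 9, against 0.017% of genes in GRD+L/D+L, 0.00681% in GRD/D and 0% in GRL/L. The difference of the Dex response from GRwt/wt was called for 0 members in each mutant by edgeR, against 0% of genes for GRD/D, 0.0254% for GRL/L and 0.0254% for GRD+L/D+L, and for 0 by DESeq2, against 0.0756%, 0.0965% and 0.117%. Unadjusted p was under 0.05 for 0, 0 and 1 members, the 1 being Mmp3 in GRD+L/D+L (difference of LFC -2.30, SE 1.09, adjusted p = 0.969). Its response was 2.09 in GRwt/wt and -0.21 in GRD+L/D+L, so the difference carries the same single library, and without it was -0.13.

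In GRD+L/D+L and in GRL/L, libraries with the same number deviated together, so the culture could be held fixed in those genotypes. Mmp3 in GRL/L was 73.4, 30.1 and 87.2 CPM in vehicle and 71.7, 30.4 and 84.0 CPM in Dex. The cultures differed 2.89-fold, while the ratio of Dex to vehicle in the same culture ran only from 0.963 to 1.01. In a fit of these 2 genotypes with the culture as a block, the 95% interval of the GRL/L ratio was 0.909 to 1.05 for Mmp3, 0.808 to 1.06 for Mmp13 and 0.955 to 1.07 for Timp1. That of Mmp10, with few counts, was far wider, 0.460 to 1.16.

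In GRD+L/D+L, Mmp3 was 38.8, 52.5 and 85.5 CPM in vehicle and 29.8, 47.0 and 76.6 CPM in Dex. It was lower with Dex in all 3 cultures, at ratios of 0.767, 0.896 and 0.896 (paired LFC -0.22, SE 0.05, unadjusted p = 0.000243, adjusted p = 0.0871). Mmp13 was also lower in 3 of 3 cultures, at 9.49, 12.8 and 36.1 CPM in vehicle and 5.97, 10.9 and 29.6 CPM in Dex (paired LFC -0.35, SE 0.10, adjusted p = 0.201). Mmp10 was lower in 3 of 3 cultures at ratios of 0.551 to 0.981 (adjusted p = 0.665), Timp1 was lower in 3 of 3 at 0.942 to 0.990, and Timp3 was higher in 3 of 3 at ratios of 1.03 to 1.09 (adjusted p = 0.409). In GRL/L Mmp2, Mmp14, Timp2 and Timp3 were lower in 3 of 3 cultures and Timp1 higher, Timp3 at ratios of 0.958 to 0.996 and Timp1 at 1.00 to 1.03. Thus 5 of 9 members lay on 1 side in all 3 cultures of each genotype, as did 24.9% of all genes tested in GRL/L and 26.3% in the double mutant, and the difference between the genotypes was not tested. None passed the test, 0 genes of 14676 were called in that fit, and the paired fit was added after the values had been seen.

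The genotypes were next compared without ligand. In vehicle, 0 of 9 members were called between GRD/D and GRwt/wt by edgeR (0.00635% of genes) and by DESeq2 (0.2% of genes), and 0 had an unadjusted p under 0.05. Between GRL/L and GRwt/wt 1 of 9 was called by both tools, Timp1, with 7.78% of genes called by edgeR and 9.09% by DESeq2. For GRD+L/D+L 0 of 9 were called by both, with 8.32% and 9.84% of genes called and 2 members with an unadjusted p under 0.05, Mmp14 and Timp1.

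Timp1, a secreted inhibitor of most MMPs with growth-promoting activity of its own, was the member called. Its values in GRwt/wt vehicle were 357.0, 375.8 and 190.2 CPM, and in GRL/L vehicle 128.5, 91.2 and 192.7 CPM. The groups overlapped through replicate 3 of each, and Timp1 was lower in GRL/L by an LFC of -1.19 (SE 0.38, adjusted p = 0.0320). Without GRL/L vehicle replicate 1 or 2, or GRwt/wt vehicle replicate 1 or 2, the call was lost (adjusted p = 0.0955, 0.133, 0.0777 and 0.0807), as it was after a correction of each library for GC content and length (LFC -0.67, adjusted p = 0.227). Timp1 is on the X chromosome, and with the sex of the culture as a covariate the LFC was -1.24 (adjusted p = 0.0244).

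With Dex, Timp1 was 129.9, 93.6 and 192.9 CPM in GRL/L against 245.0, 252.7 and 345.5 CPM in GRwt/wt, groups that did not overlap. The share of all genes with groups so separated was not counted. The LFC of -1.02 was not called (SE 0.38, adjusted p = 0.121). GRL/L libraries were paired by number, so the Dex values are not an independent repeat of the vehicle ones. GRD+L/D+L gave 247.3, 111.1 and 165.0 CPM in vehicle (LFC -0.87, SE 0.38, adjusted p = 0.108) and 239.0, 110.0 and 155.5 CPM in Dex (LFC -0.77, SE 0.38, adjusted p = 0.256). GRD/D gave 274.5 and 268.1 CPM in vehicle (LFC -0.23, adjusted p = 0.783) and 298.7, 172.0 and 293.5 CPM in Dex (LFC -0.16, adjusted p = 0.968). By mean in vehicle the order was GRwt/wt (308), GRD/D (271), GRD+L/D+L (174) and GRL/L (137), and GRwt/wt and GRD/D overlapped, as did GRD+L/D+L and GRL/L, while the 2 vehicle libraries of GRD/D lay above those of GRD+L/D+L. With Dex the GRD/D values overlapped those of both other mutants.

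More members were called in vehicle without GRwt/wt vehicle replicate 3, the library with macrophage transcripts. Timp1 stayed called in GRL/L (LFC -1.40, adjusted p = 0.0120), and Mmp13 was called higher there (LFC 3.79, SE 1.42, adjusted p = 0.0472), with 17.1% of genes called. In the double mutant Mmp10 was then called higher (LFC 3.31, SE 1.15, adjusted p = 0.0419) and Timp1 lower (LFC -1.08, adjusted p = 0.0492), with 12.8% called. With that library the LFC of Mmp13 in GRL/L was 0.86 and of Mmp10 in GRD+L/D+L 1.69. Mmp13 was 29.1 CPM there and 0.26 and 2.52 CPM in the other 2 GRwt/wt vehicle libraries, and Mmp10 had 75 counts there against 6 and 12. All 10 macrophage markers were highest in that library, and 8 of the 10 were called lower in GRD+L/D+L vehicle against GRwt/wt vehicle, where 8.32% of all genes were called. Of these, Adgre1 was 154.9 CPM in that library but 0.371 and 0.157 CPM in the other GRwt/wt vehicle libraries, against 0.139 to 1.88 CPM in GRD+L/D+L vehicle. The part of macrophage transcripts in the values of the members was not tested.

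Mmp14 was 931.7, 1866.7 and 1403.3 CPM in GRD+L/D+L vehicle and 1058.5, 614.5 and 891.9 CPM in GRwt/wt vehicle. Values overlapped, and the LFC of 0.66 was not called (SE 0.27, adjusted p = 0.0967). GRD+L/D+L replicate 1, the culture with the cartilage markers, was the lowest of its group for Mmp14, for Mmp11 (96.0 against 261.3 and 191.6 CPM) and for Timp3 (613.5 against 1319.4 and 1392.8 CPM) and the highest for Timp1. Without its vehicle library the LFC was 0.92 for Mmp14 (adjusted p = 0.0319), 0.71 for Mmp11 (0.101), 0.88 for Timp3 (0.0858) and -1.18 for Timp1 (0.0604), none of them called. The part of cartilage transcripts in these values was not tested. Mmp2 differed by 0.56 in GRL/L (adjusted p = 0.227) and by 0.62 in GRD+L/D+L (adjusted p = 0.187). Mmp3 was higher by mean in all 3 mutants, at 74.7 CPM in GRD/D, 63.6 CPM in GRL/L and 59.0 CPM in GRD+L/D+L against 29.6 CPM in GRwt/wt, with adjusted p from 0.310 to 0.504.

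With Dex, 0 of 9 members were called between GRD/D and GRwt/wt by both tools (0.254% of genes by edgeR, 1.7% by DESeq2), with 2 unadjusted p under 0.05, Mmp10 and Timp2. Between GRL/L and GRwt/wt 0 of 9 were called by both tools (2.59% and 4.59% of genes), with 1 unadjusted p under 0.05, Timp1. For GRD+L/D+L edgeR called 0 of 9 (2.75% of genes), with 1 unadjusted p under 0.05, and DESeq2 called 1 (4.65% of genes), both being Mmp10. Mmp10 had 9, 81 and 107 counts in GRD+L/D+L Dex against 0, 20 and 3 in GRwt/wt Dex (edgeR LFC 3.27, SE 1.09, adjusted p = 0.0927; DESeq2 adjusted p = 0.0177). The 2 groups overlapped, as the lowest GRD+L/D+L library had fewer counts than the highest GRwt/wt library, and edgeR also called it without GRwt/wt Dex replicate 2, GRD+L/D+L Dex replicate 1 or GRwt/wt vehicle replicate 1 (adjusted p = 0.0473, 0.0485 and 0.0361). Timp2 was 2093.9, 1508.5 and 1853.5 CPM in GRD/D Dex, below the 2735.9, 3766.9 and 3150.1 CPM of GRwt/wt Dex in every library (LFC -0.85, SE 0.27, adjusted p = 0.215). Here too the share of all genes so separated was not counted.

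The balance of the family was described as the summed CPM per kb of the 6 proteinases over that of the 3 inhibitors. It was 0.494 ± 0.247 (SD, n = 3) in GRwt/wt vehicle and 0.572 ± 0.344 in GRwt/wt Dex, with single libraries from 0.303 to 0.964. In GRL/L it was 0.761 ± 0.0472 in vehicle and 0.754 ± 0.0370 in Dex, the tightest of the groups of 3, and the double mutant gave 0.800 ± 0.286 and 0.758 ± 0.224. GRD/D gave 0.603 ± 0.00832 (n = 2) and 0.706 ± 0.158. Each mutant group overlapped the GRwt/wt libraries of the same treatment, but only through GRwt/wt vehicle replicate 3 (0.773) and GRwt/wt Dex replicate 2 (0.964). The other GRwt/wt libraries ran from 0.303 to 0.429, below every mutant library (lowest 0.537). The 2 GRD/D vehicle libraries (0.597 and 0.609) lay below all GRL/L libraries and below those of GRD/D with Dex (0.614 to 0.888). No test was made. Mmp3, Mmp10 and Mmp13 together made up between 1.44% and 15.9% of the summed proteinase level.

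**Figure D3:**
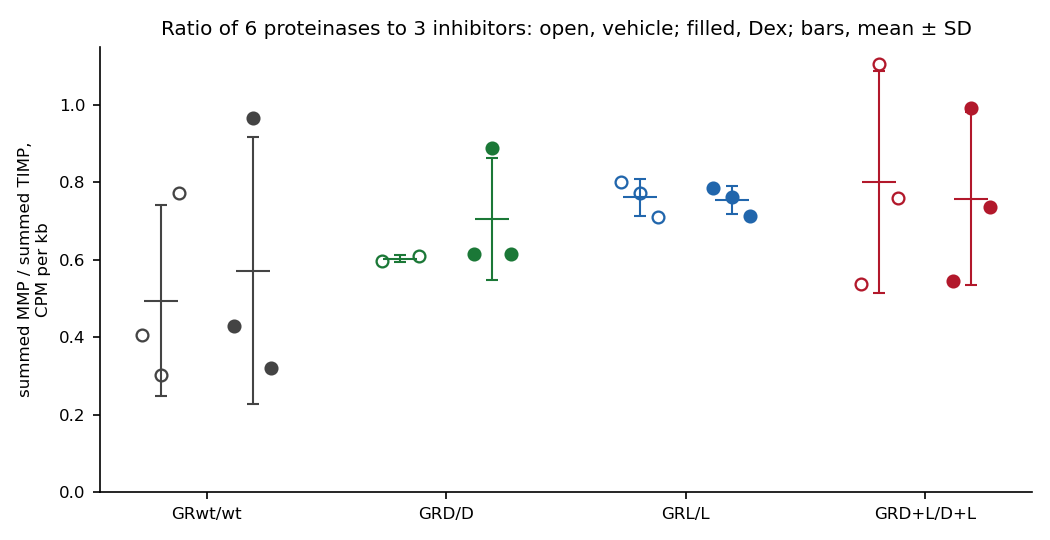
Ratio of summed proteinase to summed inhibitor level in CPM per kb of exon, by genotype and treatment, with 1 point a library (open, vehicle, filled, Dex) and bars of mean ± SD on a linear axis from 0. GRL/L libraries lie between 0.709 and 0.801, inside the span of GRwt/wt from 0.303 to 0.964. Apart from vehicle replicate 3 (0.773) and Dex replicate 2 (0.964), the GRwt/wt libraries lie at or below 0.429.

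Over the 23 libraries, which share cultures, genotypes and depth, several members moved together in log2 CPM. Mmp3 and Mmp13 had r = 0.81 (rho 0.85), Mmp10 and Mmp11 0.76 (0.82), Mmp2 and Mmp14 0.72 (0.76) and Mmp10 and Mmp13 0.66 (0.60), while Mmp3 and Mmp10 had 0.43 (0.40). Proteinase and inhibitor ran in opposite directions for Mmp14 and Timp1, at r = -0.67 (rho -0.71), and for Mmp10 and Timp2, at -0.55 (-0.65). Other such pairs went either way, as Mmp11 and Timp2 at -0.42, but Mmp2 and Timp2 at 0.44 and Mmp14 and Timp3 at 0.41. These values are descriptions over libraries of unequal genotype and carry no test.

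**Figure D4:**
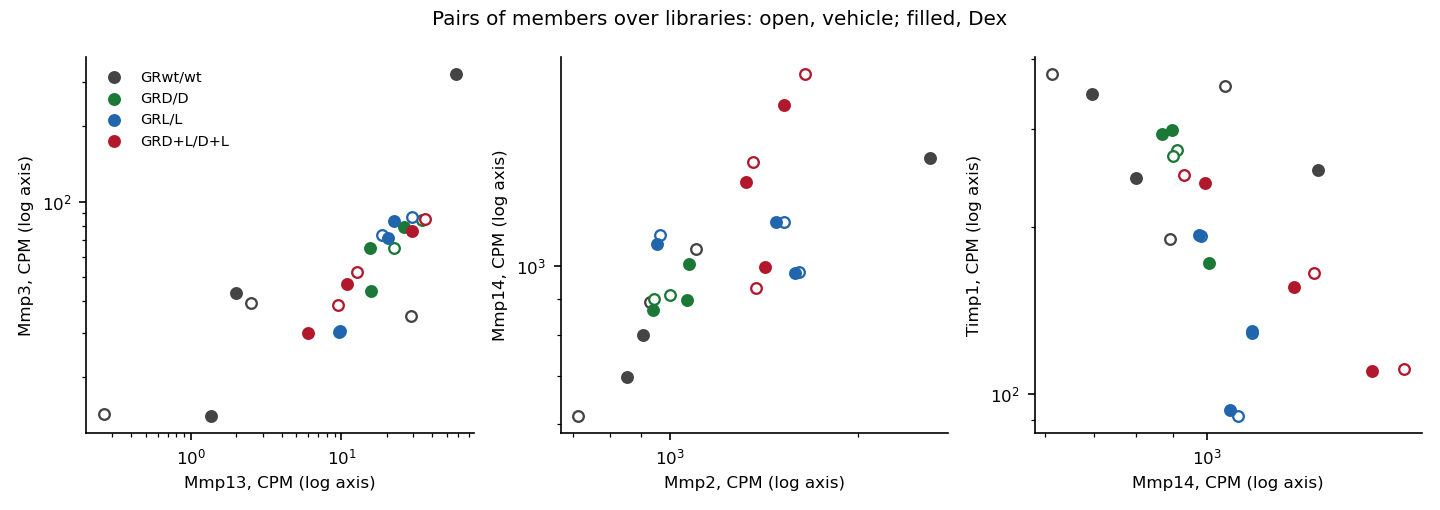
CPM of 3 pairs of members on log axes, with 1 point a library (open, vehicle, filled, Dex, color by genotype). Mmp3 rises with Mmp13 (r = 0.81) and Mmp14 with Mmp2 (0.72), and Timp1 falls as Mmp14 rises (-0.67).

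Genes outside the family with the most similar pattern over the 23 libraries, by Pearson correlation of log2 CPM, were for Mmp13 the interferon-inducible genes Ifi202b (0.91), Mndal (0.89) and Ifi204 (0.88), and for Mmp3 Mdga2 (0.79), Cdyl (0.78) and Ifi202b (0.77). Mmp10 was nearest to Mamdc2 (0.89), Eaf1 (0.85) and Coq2 (0.85), Mmp11 to Bmp1 (0.89), BC037039 (0.89) and Fkbp11 (0.87), Mmp2 to Ces1a (0.87), Islr (0.85) and Mgp (0.82), and Mmp14 to Smox (0.90), Kctd20 (0.89) and Creb3l2 (0.89). The inhibitors were nearest to S100a4 (0.92), Gjb5 (0.92) and Ptgr1 (0.92) for Timp1, Adamtsl4 (0.92), Espn (0.91) and Tm4sf1 (0.90) for Timp2, and Piezo2 (0.86), Ccnd2 (0.86) and Xkr6 (0.86) for Timp3.

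Of the other 18 MMP and TIMP genes, 15 passed the filter, and 0 were called with Dex in any genotype. In GRL/L vehicle 1 of 15 was lower, the membrane-type proteinase Mmp15 (LFC -1.16, adjusted p = 0.0125). In GRD+L/D+L vehicle 1 of 15 was lower, Mmp17 (LFC -1.87, adjusted p = 0.0205). Of all genes tested 7.78% and 8.32% were called in these comparisons, so 1 of 15 was near the background. Lrp1, the receptor that clears MMPs and TIMPs from the cell surface, was the 1 gene of 10 activation and surface genes that was called, and it was higher in GRL/L (LFC 1.30) and GRD+L/D+L (LFC 1.66) in vehicle and in both with Dex (1.02 and 1.32), with adjusted p from 0.00114 to 0.0353, in comparisons where 2.59% to 8.32% of all genes were called.

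Of the 16 tested ADAMTS proteinases, which cut aggrecan and procollagen, 1 was called in GRL/L vehicle, Adamts9 (LFC 1.96, adjusted p = 0.0363), where 7.78% of all genes were called. In GRD+L/D+L, Adamts12 was higher (1.64, adjusted p = 0.0426) and Adamts20 lower (-2.98, adjusted p = 0.0137) in vehicle, and with Dex Adamts4 was higher (1.06, adjusted p = 0.0284) and Adamts15 (-2.63, adjusted p = 0.0425) and Adamts20 lower. That made 2 of 16 in vehicle and 3 of 16 with Dex, where 8.32% and 2.75% of all genes were called. Of 15 matrix substrates, Eln was lower in GRD+L/D+L in vehicle (-2.72, adjusted p = 0.0241) and with Dex (-3.90, adjusted p = 0.0146), and Vcan higher in vehicle (2.30, adjusted p = 0.0253). The same shares of all genes, 8.32% in vehicle and 2.75% with Dex, apply to these calls. Of the 7 AP-1 factor genes 1 was called, Jund in GRL/L vehicle (-1.02, adjusted p = 0.00123), where 7.78% of all genes were called, and 0 responded to Dex in any genotype by edgeR.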

How the data were processed

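Total RNA of MEFs was sequenced by the authors on a NovaSeq instrument from TruSeq libraries, mapped to mm10 with HISAT2 2.1.0, and uniquely mapped reads were counted per gene with featureCounts 2.0.0, as the submitters' processing notes and the methods give it. The deposited table holds raw counts. The annotation release and strandedness are not given in the sources used here, so overlapping genes are uncertain.

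Counts were tested in R 4.3.3 with edgeR 4.0.16 (TMM scaling, filterByExpr, quasi-likelihood test, Benjamini-Hochberg adjustment), with all 23 libraries in 1 model and 1 mean per group. All 9 members passed the filter, with 15748 genes tested. A gene was called at an adjusted p of 0.05 and |LFC| of 1. LFC used a prior count of 0.125, and SE came from the LFC and F statistic. The script was tested on simulated data. Symbols, coordinates and exon lengths come from GENCODE M21, which held 55227 of the 55487 identifiers, and promoters from RefSeq (GRCm38.p6).

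Alternatives were DESeq2 1.42.0, RLE and upper-quartile scaling, no filter, a prior count of 2, sex as a covariate, GC and length correction, only the genotypes compared, a replicate block, adjusted p alone, and each library left out. Named were all 9 members, the 3 nearest genes of each, and up to 3 called genes per list and contrast. The result of 1 further gene list is not reported here. Shares of genes called by DESeq2 are of the genes it gave an adjusted p, which included all 9 members in each comparison except the difference of the GRD/D response, with 8 of 9. The members and lists were chosen with earlier results of these data known. Replicates are cultures from different mice. Correlations of the deviations of same-numbered vehicle and Dex libraries were 0.32, 0.64 and 0.63 in GRL/L and 0.89, 0.79 and 0.65 in GRD+L/D+L, and the numbers were taken to pair the libraries there from this check, since no label states it. Replicates all differed by more than sampling noise (lowest mean chi-square per gene 8.97).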

Additional observations from a re-analysis of the deposited data

How the results depend on the processing

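Counts of called members stayed at 0 in the 4 Dex contrasts, the 3 differences of response, GRD/D in both treatments and GRL/L with Dex under every alternative. The 1 member called in GRL/L vehicle fell to 0 with GC and length correction and with only the genotypes compared (adjusted p = 0.0589), and ran from 0 to 2 with a library left out. GRD+L/D+L in vehicle ran from 0 to 2 with a library left out, and with Dex from 0 to 1, with 1 by DESeq2 and 1 without GRwt/wt vehicle replicates 1 and 3 together, an alternative chosen after seeing the data. In GRwt/wt the Dex LFC turned with a library left out for Mmp2 (-0.085 to 0.99), Mmp3 (-0.074 to 2.65), Mmp13 (-2.67 to 3.89), Mmp14 (-0.22 to 0.63) and Timp3 (-0.58 to 0.36), ranges that include leaving out GRwt/wt vehicle replicates 1 and 3 together. That of Mmp11 (-0.48 to 0.21) turned only with those 2 left out together. The LFC also turned for Mmp11 with GC and length correction (0.11), for Timp1 with that correction (0.24) and for Timp3 with RLE scaling (0.010), no filter (0.0092) and DESeq2 (0.012), and the cause was not tested. Lengths of the longest transcript gave a proteinase to inhibitor ratio of 0.708 in GRD/D vehicle, 0.885 in GRL/L vehicle and 0.878 in GRL/L Dex.

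With the replicate number as a block, 0 members were called in each Dex contrast, and Mmp3 in GRwt/wt had an LFC of 1.04 (adjusted p = 0.232). In GRwt/wt and GRD/D this block can join libraries of different cultures, so its values there do not check the unpaired ones. Genes called with Dex in GRwt/wt went from 25 to 199 with the block, 279 with DESeq2, 13 with GC and length correction and 0 with only that genotype. With a library left out the count ran from 14 (without GRwt/wt Dex replicate 2) to 374 (without GRwt/wt vehicle replicate 2), with 75 without vehicle replicate 1 and 95 without vehicle replicate 3. Same-numbered libraries of GRwt/wt (0.55, 0.03 and -0.03) and GRD/D (0.28 and -0.20) did not all have a correlation over 0.1, the minimum set for each pair, although number 1 of both did, and they were not taken as paired. Not every library there correlated best with its own number, as GRwt/wt vehicle replicate 2 was nearest to Dex replicate 3 (0.54). By sex-linked transcripts, GRD/D vehicle replicate 2 was male and GRD/D Dex replicate 2 female, so that number joins different embryos. Mmp10, with under 10 counts in 5 libraries, is limited by depth.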
